A study of Mus musculus with 4 samples.

Results

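The zona pellucida is the extracellular glycoprotein coat of the mammalian egg. In the mouse it is built from the products of Zp1, Zp2 and Zp3, which the growing oocyte makes and secretes. ZP2 and ZP3 form the filaments, ZP1 cross-links them, and cleavage of ZP2 after fertilization stops further sperm from binding. Transcripts of these genes are hallmarks of growing oocytes and are known to fall as the oocyte matures into an egg. The question asked here was how strongly each of the 3 genes was measured in pressure-treated and control oocytes, and whether their probes gave the same answer.

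The members were all spots, other than controls, that the scanner files name Zp1, Zp2 or Zp3. This rule found 4 probes of 41174, each printed as 1 spot: 2 for Zp2 and 2 for Zp3, so 2 of the 3 genes. No spot carries the name Zp1. A single further probe, named only by an Ensembl transcript (ENSMUST00000025641), is described in the file as a predicted Zp1 mRNA, and its values are given beside the others although it falls outside the rule.

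The treated group was mouse oocytes held for 60 min under 20 MPa of hydrostatic pressure at 37 °C, and the control group was oocytes kept alike but without pressure. Each of 4 two-colour arrays carried 1 treated pool (Cy5, red) and 1 control pool (Cy3, green), each of 50 oocytes, with RNA amplified from 240 pg in successive rounds. The labels describe the 4 replicates as biological, and give neither strain, age of the donors nor meiotic stage. By the labels the treated pool was Cy5 on all 4 arrays, with no dye swap, so dye and treatment cannot be told apart. In such pools a loss of oocytes and less RNA per oocyte cannot be told apart either.

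The probe sequences are shown because their positions decide how far the probes of a gene are independent. All 5 are 60 bases long, listed 5′ to 3′ as in the files, with positions in build mm7. Capitals mark the 30 bases that the Zp3 probes have in common; the Zp2 probes share no run of 15 bases or more.
Zp3, A_51_P152973: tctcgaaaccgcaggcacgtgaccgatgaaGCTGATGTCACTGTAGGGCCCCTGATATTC
Zp3, A_52_P42762: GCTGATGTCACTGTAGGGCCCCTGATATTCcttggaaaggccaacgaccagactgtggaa
Zp2, A_51_P177304: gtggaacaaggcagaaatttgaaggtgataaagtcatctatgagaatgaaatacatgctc
Zp2, A_52_P331981: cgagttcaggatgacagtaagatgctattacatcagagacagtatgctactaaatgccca
Zp1 by description, A_51_P201697: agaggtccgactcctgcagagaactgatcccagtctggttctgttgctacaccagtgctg

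The Zp3 probes lie on the plus strand of chromosome 5. A_51_P152973, called the upstream probe here, runs over chr5:134958870-134959720, a span of 851 bases, longer than the probe, as for a sequence that crosses an intron. A_52_P42762, the downstream probe, lies without a gap at chr5:134959691-134959750. The last 30 bases of the upstream probe are the first 30 of the downstream probe, so both read the same stretch of the transcript and are not independent measures of it. The Zp2 probes lie side by side on the minus strand, at chr7:116058035-116058182 and chr7:116057838-116057994, each with a span longer than its sequence. The probe described as Zp1 lies at chr19:10596616-10596675 on the minus strand. Exon and UTR annotation of this build was not used here.

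The label of the samples was checked against markers of oocytes, of cumulus and granulosa cells, and of blood and immune cells. Of 15 oocyte marker genes on the array, 12 passed the filter used for testing, among them Gdf9, Bmp15, Zar1 and Oosp1. Mos, Figla and Nlrp5 did not pass, and Nlrp5 was well above background in no pool. The filter asks that either channel of a probe be well above background, by the scanner's rule, on 3 or more arrays. Of all probes on the array, 19.7% passed it. Of 21 cumulus and granulosa cell markers, 6 passed it and 9 were well above background on no array. The 9 include Fshr, Lhcgr, Star and Foxl2. Of the 21, 1 gene, Tnfaip6, was well above background in both channels on 4 of 4 arrays, as were 10.6% of all probes. Whether such cells were in the pools was not tested. Over the tested members, the median log2 ratio ran from -0.13 to 0.00 across the 4 arrays for the cumulus and granulosa markers. Single genes moved further, such as Hsd17b1 at -2.26 on replicate 1 and Cyp19a1 at 1.71 on replicate 3. Of 5 blood and immune markers on the array, 2 were tested, both well above background in both channels on 4 of 4 arrays. Srgn gave -0.55, -0.38, -0.53 and -0.61 on replicates 1 to 4, and Hba-a1 -0.49, 0.17, 0.61 and 0.85. The part of these markers in the Zp3 ratio was not tested. Replicate 1 stood apart: the correlation of log2 ratios over all probes was r = -0.19 to -0.15 for pairs that hold this array and 0.09 to 0.29 for the remaining pairs. These values are across probes, which share arrays and depth. Whether the dyes of replicate 1 match its label was not settled, so the direction of its ratios rests on the label alone. The Zp3 means and the difference between its probes are given with and without it, and the means also with its sign turned.

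Zp3, which encodes a filament glycoprotein of the mouse zona, was measured in every pool. Both of its probes were well above background in both channels on 4 of 4 arrays, as were 10.6% of all probes. For the upstream probe, the mean spot signal in control pools was 5.03, 13.5, 10.2 and 7.03 times its local background on replicates 1 to 4. In treated pools the same spot was at 5.43, 2.13, 3.49 and 4.58 times background. For the downstream probe the control pools were at 8.83, 7.26, 11.9 and 17.8 times background. The treated pools were at 11.2, 1.76, 3.30 and 7.16 times background for that probe. Before normalization the treated channel was thus the dimmer on replicates 2, 3 and 4, and the brighter on replicate 1.

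The same order was seen over the whole array. At the 99th percentile of all spots, signal net of background was 2.56 times as high in the treated as in the control channel on replicate 1, and 0.393, 0.247 and 0.304 times on replicates 2 to 4. Net of background, Zp3 gave 1.49, 0.124, 0.352 and 0.726 times at the upstream probe. The corresponding ratios at the downstream probe were 1.48, 0.152, 0.280 and 0.538.

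**Figure D1:**
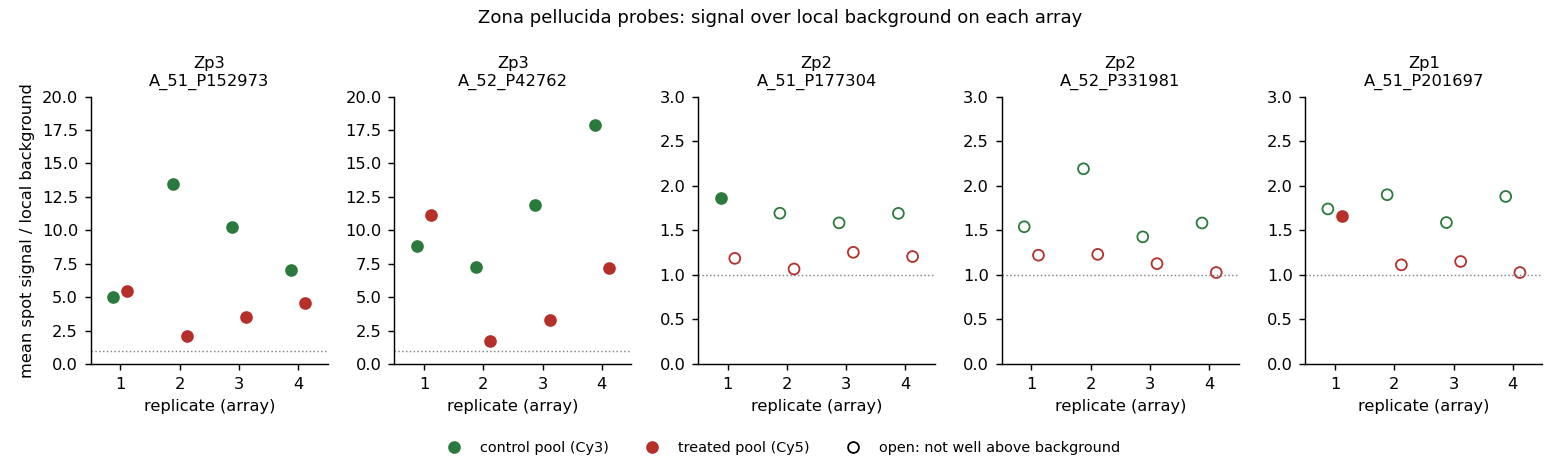
Mean spot signal divided by the spot's own local background (vertical axis, linear; note the different range of the Zp3 panels) on each of 4 arrays (horizontal axis), for control pools in green and treated pools in red; open circles are spots not well above background and the dotted line is background. Zp3 spots are filled on every array, between 1.76 and 17.8 times background, while Zp2 and Zp1 spots lie at or below 2.19 times background and all but 1 of each gene's are open.

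After background correction, loess normalization and a further scaling between arrays (Aquantile), the treated and control levels of Zp3 overlapped. On the log2 scale, per channel, the upstream probe was at 7.50, 8.26, 7.68 and 7.13 in control pools of replicates 1 to 4. In treated pools it was at 7.17, 7.67, 8.04 and 7.89. The means were 7.64 ± 0.47 in control and 7.70 ± 0.38 in treated pools (SD, n = 4). For the downstream probe the control pools were at 8.28, 7.67, 8.01 and 8.12, a mean of 8.02 ± 0.26, and the treated pools at 7.82, 7.35, 8.14 and 8.67, a mean of 7.99 ± 0.55 (SD, n = 4). At both probes the treated range overlapped that of the controls.

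Within arrays the Zp3 ratio changed direction between replicates. At the upstream probe the log2 ratio, treated over control, was -0.32, -0.59, 0.36 and 0.76 on replicates 1 to 4. The downstream probe gave -0.46, -0.32, 0.13 and 0.54. By these loess values Zp3 was lower in the treated pool on replicates 1 and 2, at both probes. It was higher on replicates 3 and 4. With median centring, given below, replicates 1, 3 and 4 took the opposite sign. In fold terms the loess ratios ran from 0.663 to 1.70 at the upstream probe and from 0.726 to 1.46 at the downstream probe.

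The mean over arrays lay near 0. It was 0.05 ± 0.28 (SE, n = 4) at the upstream probe and -0.03 ± 0.23 at the downstream probe, with adjusted p = 0.98 and 0.99 by limma with Benjamini-Hochberg adjustment over all 8115 probes tested. None of the 2 tested Zp3 probes passed, and the background of probes passing at an adjusted p of 0.05 was 0%. Without adjustment 324 probes, 3.99% of those tested, were under 0.05 by limma, with neither Zp3 probe among them. A mean of at least 2-fold in either direction was found for 1.91% of tested probes, and for neither Zp3 probe. The exact two-sided sign-flip permutation test over the 4 arrays gave p = 0.875 and 1. The 95% interval of the fold change ran from 0.642 to 1.67 at the upstream probe and from 0.660 to 1.46 at the downstream probe, under this normalization. In simulated data of the same size, with spreads drawn from all tested probes with 4 values, 0% of log2 changes of 1 were recovered. Of log2 changes of 2, 69.25% were recovered, with a mean of 7.4 false calls per run. For a probe of the array, a test that was not passed thus leaves room for sizeable changes. The simulation was not made for the spread of Zp3. Means with the scanner software's processed signals had a larger SE, 0.65 at the upstream and 0.57 at the downstream probe. The intervals above thus give the range for Zp3 under loess only. Without replicate 1 the means were 0.18 ± 0.32 and 0.12 ± 0.24 (SE, n = 3; limma's adjusted p = 0.85 and 0.87). With the sign of replicate 1 turned they were 0.21 and 0.20, and neither passed.

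The spread of Zp3 between arrays lay within the middle range of tested probes. The SD over the 4 arrays was 0.62 at the upstream and 0.46 at the downstream probe, against a median of 0.52 and quartiles of 0.30 and 0.80 over the 8053 tested probes with 4 values. Of these probes 12.2% had the same sign on 4 of 4 arrays, which neither Zp3 probe had.

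The scanner software's own error model, which compares the channels of a spot on a single array, gave small p-values in opposite directions. In the authors' deposited files its p for the upstream Zp3 probe was 0.00246, 8.93e-12, 0.00126 and 4.21e-07 on replicates 1 to 4. For the downstream probe the authors' deposited p was 5.54e-04, 6.32e-09, 0.0504 and 1.31e-04. These p-values concern the pools on 1 array and not the conditions, and with the processed signals they refer to, the log2 ratio was below 0 on replicates 1 and 2 and above 0 on 3 and 4. The processed log2 ratios had wider spreads than the loess values, from -1.83 to 1.18 at the upstream probe and from -1.49 to 0.84 at the downstream probe.

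The sign on an array depended on the scaling. With median centring in place of loess, the upstream probe gave 0.46, -0.91, -0.97 and -0.24 on replicates 1 to 4, and the downstream probe 0.49, -0.52, -1.27 and -0.72. Replicates 1, 3 and 4 thus took the opposite sign from the loess values, and replicate 2 kept it. The means were -0.41 ± 0.32 and -0.51 ± 0.34 (SE, n = 4), beside a median of -0.32 over all tested probes under this scaling. Neither passed (limma's adjusted p = 0.91 for both).

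**Figure D2:**
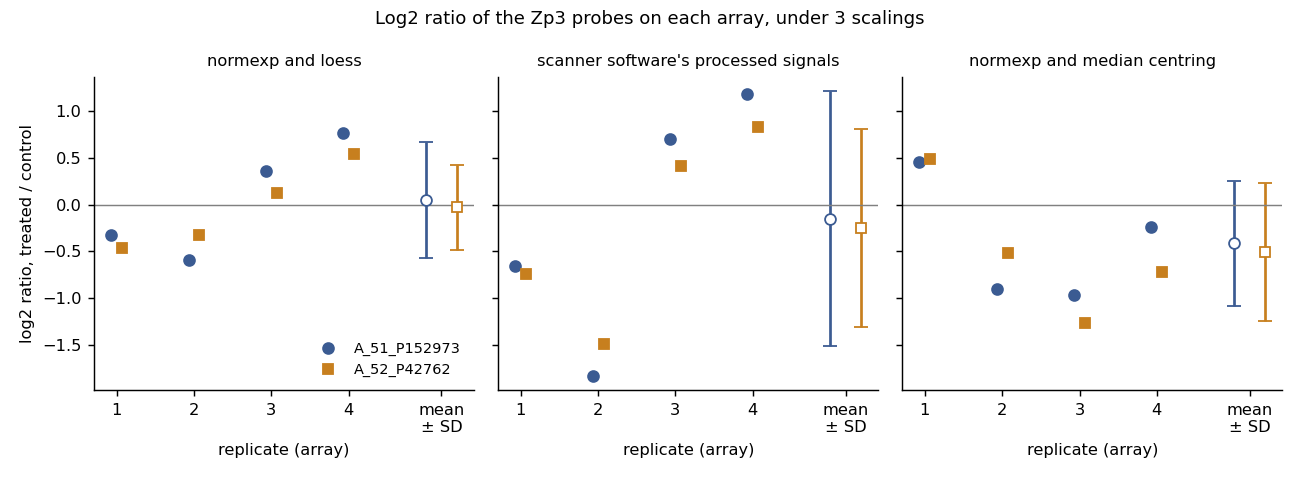
Log2 ratio of treated over control (vertical axis) of the upstream (circles) and downstream (squares) Zp3 probe on each of 4 arrays, with the mean ± SD at the right of each panel (open symbols), after loess, with the scanner software's processed signals and after median centring. The probes stay close to each other on every array, while replicates 1, 3 and 4 change sign between the first and the third panel.

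The Zp3 probes gave the same sign on 4 of 4 arrays. The upstream minus the downstream log2 ratio was 0.14, -0.27, 0.23 and 0.22 on replicates 1 to 4, a mean of 0.08 ± 0.24 (SD, n = 4). The difference did not stand out from its spread (exact two-sided sign-flip permutation test over 4 arrays, p = 0.625). This test cannot reach 0.05 with 4 arrays, since its smallest p is 2 of 16 sign patterns. Without replicate 1 the difference was 0.06. It was smaller than the SD of either probe between arrays.

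This closeness was set beside the 1034 genes with at least 2 kept probes, taking the brightest 2. Over the 71 genes whose probes share a run of 20 or more bases, Zp3 among them, the median absolute difference between the mean log2 ratios was 0.08, and 76.1% had the same sign on 4 of 4 arrays. Over the 963 genes whose probes share no such run, the median difference was 0.26 and 14.8% had the same sign on all 4. Across genes the means of the probes correlated at r = 0.94 in the first set and 0.18 in the second, as a description, since genes share the arrays. The Zp3 difference of 0.08 was larger than that of 42.3% of genes with overlapping probes and of 17.5% of the others. The SD of the Zp3 difference between arrays, 0.24, was larger than that of 62.0% of the genes with overlapping probes, whose median was 0.18, and of 9.03% of the others. No separate stretch of Zp3 was measured, so its probes cannot be set against an independent one.

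**Figure D3:**
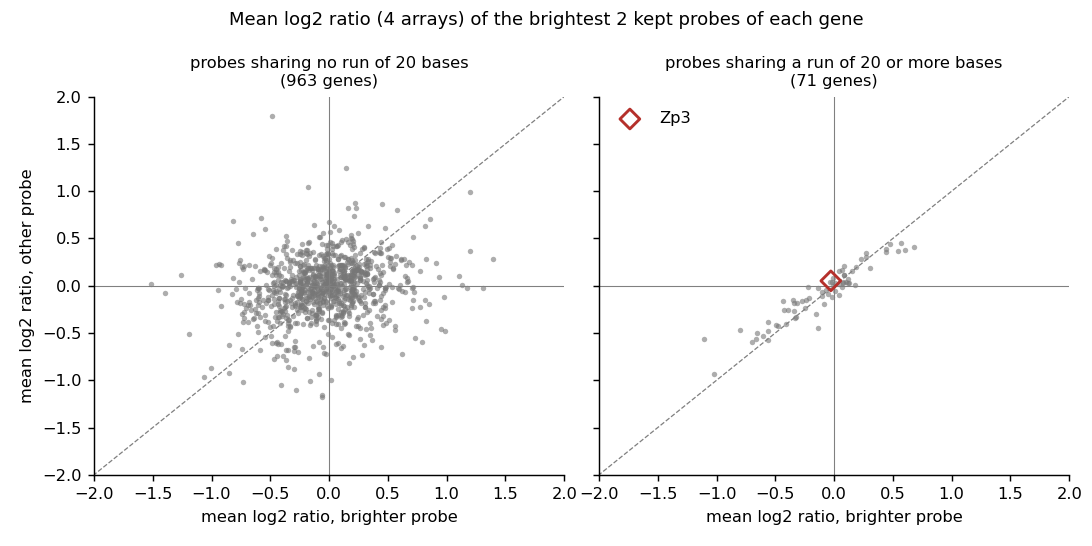
Mean log2 ratio over 4 arrays of the brighter (horizontal axis) and the other (vertical axis) of the brightest 2 kept probes of each gene, for 963 genes whose probes share no run of 20 bases (left) and 71 whose probes do (right); the dashed line is equality. Points on the right lie along the dashed line, with Zp3 (red diamond) near 0, and points on the left scatter around it.

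Zp2, which encodes the filament glycoprotein cleaved after fertilization, was at or near background in both conditions. Its A_51_P177304 spot was well above background in the control pool of replicate 1 and in no other pool, and its A_52_P331981 spot in none of the 8 pools. In control pools A_51_P177304 was at 1.86, 1.69, 1.58 and 1.69 times its local background on replicates 1 to 4, and in treated pools at 1.19, 1.07, 1.25 and 1.21. A_52_P331981 was at 1.54, 2.19, 1.43 and 1.58 times background in control pools and at 1.22, 1.23, 1.13 and 1.03 in treated pools. Both spots were the brighter over background in the control channel on every array, as were the spot described as Zp1 and 100% of the negative control spots, so this order carries no comparison between the conditions.

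The 153 negative control spots of each array give the level of a spot with no matching transcript. In the control pool of replicate 1, A_51_P177304 had a mean signal of 52.0, above the highest negative control at 45.1. In its other control pools it was brighter than 73.9%, 95.4% and 93.5% of the negative controls on replicates 2 to 4. In its treated pools it was brighter than 32.0% to 58.8% of the negative controls. A_52_P331981 had 59.1 in the control pool of replicate 2, above the highest negative control at 55.8, although not well above background by the scanner's rule. In the other control pools it exceeded 71.9% to 94.1% of the negative controls, and in treated pools 81.0% to 97.4%. Zp2 signal above the negative controls was thus seen in 1 control pool per probe, on different arrays.

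No fold change or log2 ratio is given for Zp2, because on no array were both channels well above background at either probe. Neither probe entered the test. These spots show that Zp2 was not measurable here, not that its transcript was absent.

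For Zp1, whose product cross-links the filaments, the probe named by description was well above background in the treated pool of replicate 1 only. Its mean signal there was 56.6, against a highest negative control of 43.2, or 1.66 times its local background. In the other treated pools it was at 1.11, 1.15 and 1.03 times background on replicates 2 to 4, and in control pools at 1.74, 1.90, 1.59 and 1.88 on replicates 1 to 4. In control pools it exceeded 42.5%, 42.5%, 3.27% and 83.0% of the negative controls. With no second probe and no other pool well above background, Zp1 gave no comparison between the conditions. The zona genes could not be compared with each other either, since Zp3 alone passed the filter.

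Genes of the zona pathway were taken in the order of their roles, starting with transcription. Of 9 listed regulators, 8 had a probe and 4 were tested. Of these 0 passed. By the brightest kept probe of each gene, the measure used for ratios in all gene lists, 1 mean log2 ratio lay above 0 and 3 below. The median was -0.35, beside -0.02 over all tested probes, of which 3869 means lay above 0 and 4246 below. At the next brightest kept probe Tcf4 was at 0.24 and Tcf12 at 0.04, against -0.76 and -0.41 at the brightest. Their sign thus depended on the probe. Lhx8 was at 0.16, against 0.12. Figla, the basic helix-loop-helix factor that drives transcription of all 3 zona genes, has 1 probe, which was well above background on 1 array in control pools and on 0 in treated pools, so it was not tested. Nobox, which like Figla is also among the oocyte markers, and Lhx8, both homeobox factors of early oocytes, were well above background in both channels on 4 of 4 arrays.

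Of 9 genes for processing, glycosylation and cleavage of zona proteins, 5 were tested, 0 passed, and the median log2 ratio was -0.09 with 2 above 0 and 3 below. Astl, which encodes ovastacin, the cortical granule protease that cleaves ZP2, was well above background on 1 array in each channel and was not tested. Furin, a convertase of the secretory pathway, was among the tested members and did not pass (log2 ratio -0.17 ± 0.25, SE, n = 4; limma's adjusted p = 0.95).

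On the egg surface, 3 of 4 listed genes were tested, 0 passed, and 3 had a mean below 0, with a median log2 ratio of -0.18. Cd9, the tetraspanin needed for fusion with sperm, was at -2.25, 0.35, -1.25 and -0.38 on replicates 1 to 4. Its mean was -0.88 ± 0.44 (SE, n = 4; limma's adjusted p = 0.93), which did not pass. Izumo1r, the egg receptor for the sperm protein IZUMO1, gave -0.10, -0.37, 0.12 and -0.38, a mean of -0.18 ± 0.18 (SE). Gdf9, an oocyte growth factor, gave 0.44, 0.66, 1.18 and -0.37, a mean of 0.48 ± 0.28 (SE; limma's adjusted p = 0.93), which did not pass.

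The genes whose 4 log2 ratios lay nearest to those of the downstream Zp3 probe, by root mean square difference over the 4 arrays, were Pmf1, Serinc3 and Cog6. Their differences were 0.08, 0.09 and 0.10, against a median of 0.68 over 6023 genes. Pmf1, a kinetochore protein, was at -0.55, -0.36, 0.27 and 0.59 on replicates 1 to 4. Serinc3, a membrane protein, was at -0.53, -0.23, 0.13 and 0.68. Cog6, a subunit of a Golgi tethering complex, was at -0.58, -0.19, 0.13 and 0.46. The upstream Zp3 probe itself differed by 0.22, and 55 genes lay nearer than that, so with 4 arrays the likeness does not single these genes out.

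**Figure D4:**
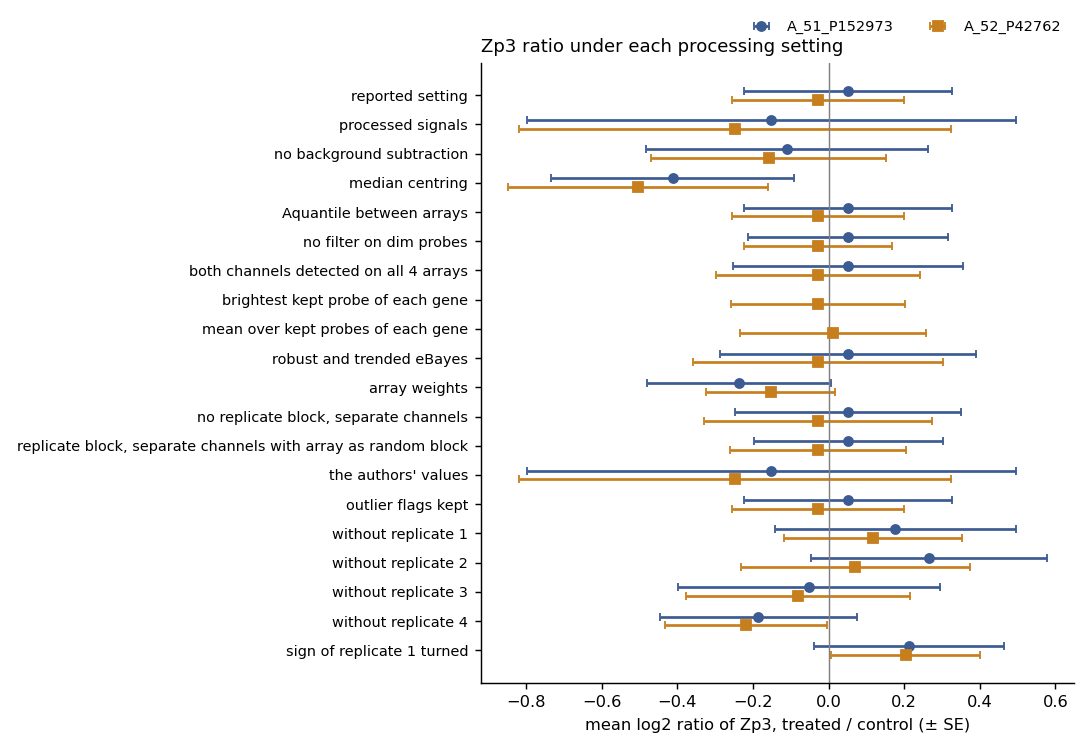
Mean log2 ratio of treated over control (horizontal axis, ± SE) of the upstream (circles) and downstream (squares) Zp3 probe under the reported setting and each alternative (vertical axis); the mean over kept probes is drawn as a square. The means run from -0.51 to 0.27, on both sides of 0.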

How the data were processed

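RNA of pools of 50 oocytes was hybridised to 4 Agilent arrays, per the labels' protocols. The submitters' processing notes name Agilent Feature Extraction 9.5.1.1, whose deposited files hold mean spot and median background intensity values, background-subtracted and dye-normalized intensity values, their log10 ratio and its p-value. The authors' value table equals the deposited log10 ratio.

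With limma 3.58.1 (R 4.3.3), signals were background-corrected (normexp, offset 50) and each array was normalized by loess, giving controls a weight of 0. Controls and outlier-flagged spots were removed afterwards; 0 spots were saturated. Of 41174 probes, 8115 passed the filter: either channel well above background on 3 or more arrays. Their mean log2 ratio was tested by lmFit and eBayes, and p-values were adjusted over all of them (Benjamini-Hochberg). The test was run on simulated data for 8053 probes (10 runs). Alternatives changed the background correction, scaling, filter, probe summary, eBayes settings, blocking and arrays used. Channel levels are those after Aquantile.

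The members, gene lists and alternatives were chosen with earlier results of these data known. The named genes are every zona probe, Figla, Astl, Cd9, Gdf9 and, for each tested zona gene, the 3 nearest patterns. Furin, Izumo1r, Nobox, Lhx8, Tcf4 and Tcf12 and the other markers named were picked after their values were seen. Gene names came from the files, updated through RefSeq (GRCm38.p6) by accession for most. All arrays lie on 1 slide with 1 scan. The number of arrays limits the precision.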

Additional observations from a re-analysis of the deposited data

Results flagged for a closer look

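Of 21 sets of 4 array values examined, 1 had an array far from the others, where chance gives about 5% of sets. On replicate 1, the brightness at the 99th percentile of spots, net of background, was 2.56 times as high in the treated channel as in the control channel, against 0.247 to 0.393 on the other 3. None of the Zp1, Zp2 or Zp3 sets of log2 ratios or channel levels had such an array. The part of this imbalance in the Zp3 ratio of replicate 1 was not tested; that ratio was -0.46 after loess and 0.49 after median centring at the downstream probe.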

How the results depend on the processing

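No probe passed in either direction under any alternative run, and the adjusted p of the Zp3 probes by limma was 0.69 or higher. The mean log2 ratio of the upstream Zp3 probe, 0.05 as reported, was below 0 with processed signals (-0.15), the authors' values (-0.15), no background subtraction (-0.11), median centring (-0.41) and array weights (-0.24), and ran from -0.19 to 0.27 when 1 array was left out. The mean over both Zp3 probes was 0.0117. The downstream probe, -0.03 as reported, was above 0 with the sign of replicate 1 turned (0.20). It ran from -0.22 to 0.12 when 1 array was left out. The cause of these changes of sign was not tested. The difference between the probes was run with processed signals, with median centring and with 1 array left out. It kept its sign in these, from 0.03 to 0.20 when 1 array was left out. It was not run with array weights, where the upstream mean, -0.24, lay below the downstream mean, -0.15. The reported ratio is itself the paired analysis, since each ratio is taken within 1 array; with no replicate block in a separate-channel model the Zp3 means were 0.05 and -0.03, and with the array as a random block they were the same. Aquantile leaves the ratio as it is. The difference between zona genes was not run, as Zp3 alone was kept. The sign of replicate 1 was turned because this array correlated below 0 with the others and its dye order rests on the label. The share of tested probes under an unadjusted 0.05, 3.99% as reported (324 of 8115), was 1.74% (141) with no replicate block, 1.87% (152) without replicate 3, 1.95% (158) with median centring and 2.56% with no filter (1054 of 41174). It was 7.22% (586) with processed signals, 10.2% (828) without replicate 1, 11.7% (953) with array weights and 12.8% (1042) with the sign of replicate 1 turned, which also gave the lowest adjusted p of any probe, 0.0594.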

Other observations

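Genes of other tissues that carry a zona pellucida domain, the fold through which these proteins polymerise, were mostly dim. So was most of the array, where 19.7% of all probes passed the filter for testing. Of 11 such genes on the array, 1 was tested, Umodl1, and 8 were well above background in no pool, among them Umod, Tecta and Gp2, which are known from kidney, inner ear and pancreas. Of 6 genes for sperm proteins named for or acting on the zona, 4 were well above background in no pool, Zp3r among them, while Acr, the gene of the acrosomal protease acrosin, was well above background in both channels on 4 of 4 arrays. Acr gave log2 ratios of -0.99, 0.62, 0.78 and 0.81 on replicates 1 to 4 and did not pass (0.31 ± 0.36, SE, n = 4; limma's adjusted p = 0.93). Umodl1 and Acr were named after their values were seen. After loess, the Zp3 ratios were below 0 on replicates 1 and 2 and above 0 on replicates 3 and 4. This sign pattern was shared by 3.48% of the tested probes with 4 values, and its opposite by 6.41%.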
